A study of Drosophila melanogaster with 12 samples.

Results

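Levels of 10 genes for carbohydrate-digesting enzymes were followed in the larval fat body of Drosophila melanogaster. These were the maltase genes Mal-A1, Mal-A2, Mal-A3, Mal-A4, Mal-A6, Mal-A7 and Mal-A8 and the amylase genes Amy-p, Amy-d and Amyrel. They were taken from the count table by gene symbol, 10 of 15222 genes, and all 10 were found. Of these, 8 held enough counts to be tested and Mal-A2 and Mal-A7 did not. In all 4 groups the larvae were female, were taken as wandering larvae of the last instar, and came from mothers carrying UAS-Dcr2 (an RNA interference enzyme under GAL4 control) and r4-GAL4, a driver active in the fat body. Fathers were either w1118 control males (stock 60000) or males of stock 992 with UAS-InRi, which expresses double-stranded RNA against InR, the insulin receptor gene. Larvae were reared at 25 °C on food with 0.15 M or 0.7 M sucrose, which gives 4 groups of 3 libraries. Fat bodies were set free from the larvae by shearing and collected by centrifugation, and RNA depleted of ribosomal RNA was sequenced.

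Maltases of this family are alpha-glucosidases, which split glucose from maltose, sucrose and short starch fragments. Amylases cut the long chains of starch and glycogen into such fragments. In the fly both are best known as secreted digestive enzymes of the midgut, and glucose in the food is known to lower midgut amylase. That repression is known to pass through the sugar sensor Mondo and dawdle (daw), an activin-like ligand made by the fat body, among other factors.

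The libraries held 872755 to 7114144 counts, of which the 10 genes took 126 to 1121. Control 0.15 M replicate 2 stood apart from the other 11 libraries, with 0.0451% mitochondrial counts against 0.776% to 6.67% and 7628 detected genes against 9214 to 11312. Control 0.7 M replicate 3 was the shallowest, and each member other than Mal-A6 held at most 6 counts in it. InR, the target of the construct, had higher counts in the libraries labelled InRi. It stood at 26.0 to 61.1 CPM (counts scaled to a library of 1000000) in control and at 109 to 163 CPM in those libraries. The part of double-stranded RNA from the construct in these counts was not tested. They therefore do not tell whether the larvae's own InR RNA was lowered, and genotypes are named below by label alone. The 8 fat body markers, among them the larval serum protein genes, summed to 161050 to 356460 CPM. Single markers differed by genotype (edgeR quasi-likelihood test, adjusted p under 0.05). On 0.15 M and on 0.7 M, 1 of the 8 was called lower in the libraries labelled InRi and 1 higher. These were Lsp1alpha (log2 fold change -2.52 and -6.41) and Ilp6 (1.80 and 1.92). Of all genes 1.73% and 5.41% were called either way. The labels do not say that libraries came from separate cultures, so every p-value here speaks of the spread among these libraries alone.

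Mal-A6 was the leading member in every group. It averaged 103 CPM per kilobase of exonic length in control 0.15 M, 51.8 in control 0.7 M, 23.2 in InRi 0.15 M and 10.6 in InRi 0.7 M (mean levels, n = 3). Its libraries lay above all those of the next member in 3 groups and overlapped those of Mal-A1 in InRi 0.15 M. The next member was Mal-A4 in control 0.15 M, at 15.6 CPM per kilobase, and Mal-A1 in the other groups, at 11.5 in InRi 0.15 M, 4.75 in control 0.7 M and 5.04 in InRi 0.7 M. From the second to the eighth place in that order, each gene's libraries overlapped those of its neighbour in all 4 groups. On the same scale Amyrel averaged 12.7 in control 0.15 M, Amy-p 10.7 and Amy-d 6.86, and none of these stood apart from its neighbours.

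Mal-A2 and Mal-A7 were the lowest members in every group, with at most 0.633 CPM per kilobase on average. Mal-A2, first described as a larval visceral protein like Mal-A1 and Mal-A3, held 39 counts in all 12 libraries together and was at 0 in 3 of them. Mal-A7 held 44 counts and ran from 0.285 to 1.77 CPM. A count of 3 stands for 0.423 to 3.27 CPM depending on the library, so changes in these genes could not be detected at this depth, and no fold change is given.

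**Figure D1:**
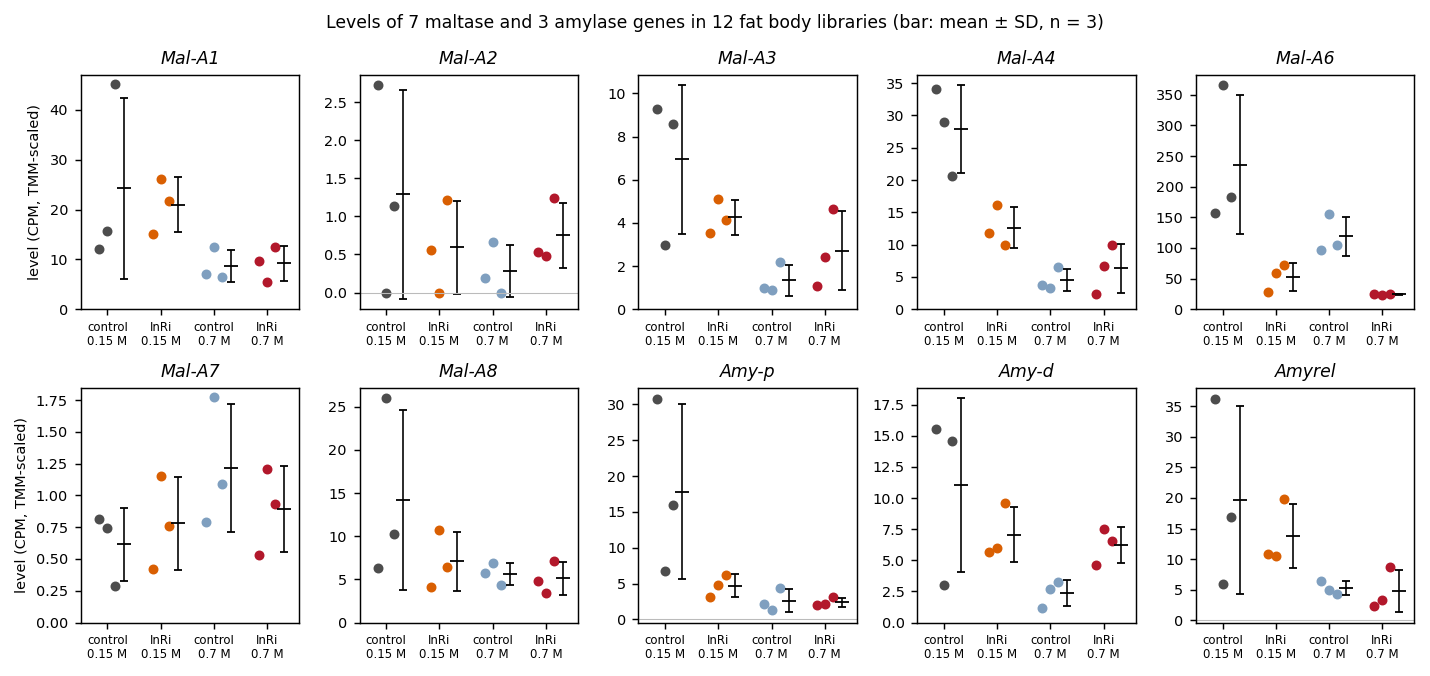
Level of each of the 10 members in each library, in CPM on a linear axis that differs between panels, with points for the 3 libraries of a group and bars for the mean ± SD. Mal-A6 runs from 23.2 to 366 CPM, while Mal-A2 stays at or below 2.73 CPM and Mal-A7 at or below 1.77 CPM.

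High sucrose came with lower levels of an amylase and of a pair of maltases. Averaged over both genotypes, Amy-p was 4.14-fold lower, Mal-A4 3.75-fold lower and Mal-A3 3.31-fold lower on 0.7 M than on 0.15 M sucrose. In whole tissue, fewer cells of a type and less RNA per cell cannot be told apart. Thus 3 of the 8 members tested fell and 0 rose, while 0.797% of the 8662 genes tested fell (edgeR quasi-likelihood test, Benjamini-Hochberg adjusted p under 0.05). The median log2 fold change of the 8 members was -1.53, beside 0.00 over all genes tested. All 8 had a log2 fold change below 0, as did 49.6% of all genes. At an unadjusted p under 0.05 all 8 were lower, as were 8.1% of all genes. The count rested on single libraries. Without control 0.15 M replicate 2 it was 7 of 8, all but Mal-A8, with 7.17% of all genes called in either direction in place of 2.34%. Over the omission of each library in turn it ran from 1 to 7.

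Among the amylases, Amy-p, one of a pair of near-identical alpha-amylase genes, stood at 30.8, 6.70 and 16 CPM in the 3 control libraries on 0.15 M sucrose and at 2.17, 1.33 and 4.36 CPM in those on 0.7 M. In the libraries labelled InRi it stood at 3.10, 4.79 and 6.24 CPM on 0.15 M and at 1.96, 2.18 and 3.11 CPM on 0.7 M. The control groups did not overlap, and the groups labelled InRi met at their edges. The averaged fall was -2.05 on the log2 scale (SE 0.39, adjusted p = 0.0146). The call ended with any of control 0.7 M replicates 1 and 2 and InRi 0.7 M replicate 1 left out (adjusted p up to 0.0701).

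Levels of Amy-d, its partner copy, in control were 15.5, 2.98 and 14.6 CPM on 0.15 M sucrose and 1.18, 2.66 and 3.27 CPM on 0.7 M. In the libraries labelled InRi the values were 5.65, 5.95 and 9.59 CPM on 0.15 M and 4.62, 7.49 and 6.52 CPM on 0.7 M. Control 0.15 M replicates 1 and 3 lay above all other libraries, and the sucrose groups overlapped in both genotypes. The averaged log2 fold change of -1.34 did not pass (SE 0.37, adjusted p = 0.0876). Reads from the copies may be split between them by the counting, which is not described, so they were also summed. The sum of Amy-p and Amy-d fell by 1.61 on the log2 scale (SE 0.35, adjusted p = 0.0284).

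Control levels of Amyrel, a diverged relative of the amylase pair, were 36.3, 5.95 and 16.8 CPM on 0.15 M and 6.51, 4.87 and 4.36 CPM on 0.7 M. In the libraries labelled InRi it stood at 10.9, 10.6 and 19.8 CPM on 0.15 M and at 2.31, 3.38 and 8.69 CPM on 0.7 M. The groups labelled InRi did not overlap, and in control the library that stood apart lay within the 0.7 M range. The averaged log2 fold change of -1.74 missed the threshold narrowly (SE 0.42, adjusted p = 0.0504). It passed in 2 of 12 omissions and in 4 of 5 alternative fits, as did that of Mal-A3 below.

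Of the maltases, Mal-A4 carried the firmest sucrose call. Control levels were 34.1, 29.0 and 20.6 CPM on 0.15 M and 3.75, 3.32 and 6.53 CPM on 0.7 M, and every control library on 0.15 M lay above every one on 0.7 M. In the libraries labelled InRi the values were 11.9, 16.2 and 9.90 CPM on 0.15 M and 2.31, 6.77 and 9.94 CPM on 0.7 M, and here the groups met at their edges. Its averaged fall was -1.91 on the log2 scale (SE 0.33, adjusted p = 0.00869), and it held in 12 of 12 omissions (adjusted p up to 0.0419).

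Mal-A3 had 9.27, 2.98 and 8.56 CPM in control on 0.15 M and 0.986, 0.886 and 2.18 CPM on 0.7 M. In the libraries labelled InRi it had 3.53, 5.12 and 4.11 CPM on 0.15 M and 1.07, 2.42 and 4.66 CPM on 0.7 M. The control groups did not overlap and those labelled InRi did. The averaged fall of -1.73 on the log2 scale (SE 0.40, adjusted p = 0.0409) held in only 2 of 12 omissions, with the highest adjusted p, 0.150, when control 0.7 M replicate 2 was left out, and the gene held 2 to 34 counts in a library.

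Control levels of Mal-A1 were 12, 15.6 and 45.1 CPM on 0.15 M and 7.10, 12.4 and 6.53 CPM on 0.7 M. In the libraries labelled InRi the values were 15.1, 26.1 and 21.6 CPM on 0.15 M and 9.60, 5.56 and 12.4 CPM on 0.7 M, with no overlap. Its averaged log2 fold change of -1.32 did not pass (SE 0.35, adjusted p = 0.0740). Mal-A8 ran from 3.38 to 26.0 CPM, its groups overlapped in both genotypes, and its averaged log2 fold change of -0.82 did not pass either (SE 0.37, adjusted p = 0.315). The exons of Mal-A1 overlap those of Cyp4e1 by 82 bp on the other strand, and those of Mal-A8 and Amyrel overlap mtt by 6 bp and gprs by 31 bp. Whether counting used strand is not given in the sources used here.

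Within control larvae alone, Amy-p fell 8.65-fold (log2 fold change -3.11, SE 0.57, adjusted p = 0.0465) and Mal-A4 fell 6.85-fold (log2 fold change -2.78, SE 0.49, adjusted p = 0.0410). These were 2 of 8 members, where 0.15% of all genes fell and 0.277% changed either way. Both calls were fragile, since Amy-p held in 1 and Mal-A4 in 4 of 12 omissions, and leaving out control 0.7 M replicate 2 gave adjusted p = 0.292 and 0.230. The count ran from 0 to 5 over the omissions, and the 5 came without control 0.15 M replicate 2, where 1.51% of all genes were called. At an unadjusted p under 0.05, 7 of 8 members were lower, as were 6.18% of all genes. Mal-A3, Mal-A4, Mal-A6 and Amy-p had groups that did not overlap, which held in this direction for 6.2% of all genes.

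Within the libraries labelled InRi, 0 of 8 members passed in edgeR, where 0.242% of all genes fell and 1.26% changed either way. DESeq2 called 0 members as well, and 4 members were lower at an unadjusted p under 0.05, as were 5.16% of all genes. These were Amyrel (log2 fold change -1.58, adjusted p = 0.299), Mal-A1 (-1.19, adjusted p = 0.352), Mal-A6 (-1.13, adjusted p = 0.255) and Mal-A4 (-1.04, adjusted p = 0.387). Without control 0.15 M replicate 2 the count was 2, with 6.7% of all genes called. Mal-A1, Mal-A6 and Amyrel had groups that did not overlap, beside 12.2% of all genes.

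**Figure D2:**
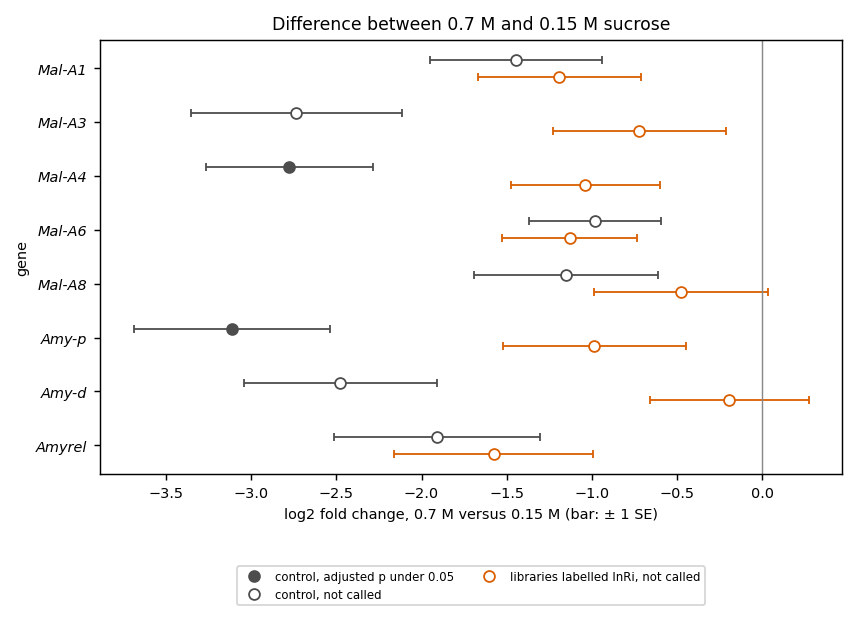
Log2 fold change of each tested member on 0.7 M against 0.15 M sucrose, in control (grey) and in libraries labelled InRi (orange), with bars of 1 SE and filled points for adjusted p under 0.05. All points lie below 0, and the filled ones are Amy-p at -3.11 and Mal-A4 at -2.78 in control.

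Whether sucrose acted differently in the genotypes was tested directly, and no member passed. The interaction gave 0 calls among 8662 genes in edgeR, of which 456 (5.26%) had an unadjusted p under 0.05. DESeq2 called 17 genes and 0 members. Among the members 4 had an unadjusted p under 0.05, all with a smaller fall in the libraries labelled InRi, namely Amy-d (log2 difference 2.28, adjusted p = 0.888), Amy-p (2.13, adjusted p = 0.895), Mal-A3 (2.01, adjusted p = 0.895) and Mal-A4 (1.74, adjusted p = 0.895). Mal-A6 had a log2 difference of -0.15 (SE 0.54, adjusted p = 0.977).

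Several midgut markers moved with sucrose too. The 37 markers, digestive proteases, lysozymes and a lipase among them, summed to 2602 to 4822 CPM in control 0.15 M and 949 to 1303 CPM in control 0.7 M. In the libraries labelled InRi the sums ran from 1088 to 2169 CPM on 0.15 M and from 468 to 1443 CPM on 0.7 M. Of the 32 markers tested, 9 fell, 2 rose and 21 did not pass on 0.7 M sucrose averaged over genotype (median log2 fold change -0.82). Of all genes 0.797% fell and 2.34% changed either way, with a median log2 fold change of 0.003. The lysozyme genes LysB (-2.69), LysC (-2.71) and LysS (-2.85) and the protease gene Jon65Aiv (-1.97) had the smallest p-values, with adjusted p from 0.00168 to 0.0107. Several lysozyme genes are close copies, so reads may be split between them as well. The trypsin gene gammaTry was at 0 in all 12 libraries, and LysP was at 0 in both groups on 0.7 M. The part of midgut RNA in the amylase and maltase values was not tested.

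**Figure D3:**
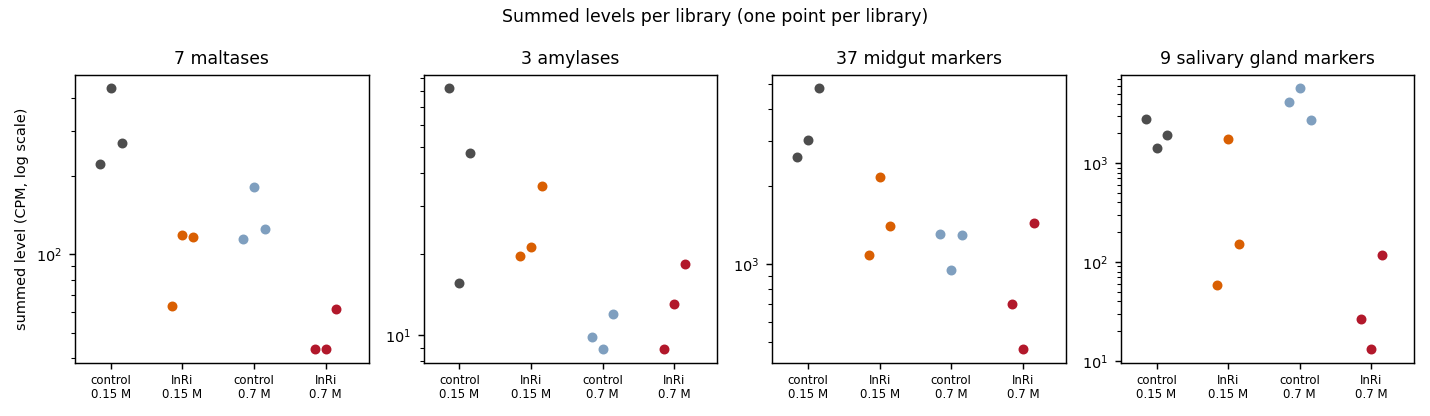
Summed level per library, in CPM on log axes, of the 7 maltases, the 3 amylases, 37 midgut markers and 9 salivary gland markers, with 1 point per library. Group means of the maltases run 311, 99.5, 140 and 49.2 CPM from left to right and those of the amylases 48.5, 25.5, 10.2 and 13.4 CPM.

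The libraries labelled InRi differed from control in Mal-A6, the most abundant member. Control levels of Mal-A6 on 0.15 M sucrose were 158, 366 and 184 CPM, and those labelled InRi were 27.5, 59.6 and 72.3 CPM. Control levels on 0.7 M were 96.0, 156 and 105 CPM, and those labelled InRi were 24.4, 23.2 and 25.2 CPM. All 6 control libraries lay above all 6 labelled InRi. Lower values with no overlap within each sucrose level, a looser criterion, were found for 4.35% of all genes. On 0.7 M the libraries labelled InRi lay close together (24.2 ± 0.982 CPM, SD, n = 3).

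The fall in Mal-A6 was 4.42-fold on 0.15 M (log2 fold change -2.14, SE 0.40, adjusted p = 0.0185) and 4.91-fold on 0.7 M (-2.30, SE 0.41, adjusted p = 0.00619). Averaged over sucrose it was 4.66-fold (-2.22, SE 0.28, adjusted p = 0.000382). Mal-A6 was the 1 member called of 8 in each of these comparisons, where 0.773% of all genes fell on 0.15 M, 1.79% on 0.7 M and 5.13% on average. In either direction 1.73%, 5.41% and 11.4% of all genes were called. The call on 0.15 M ended without InRi 0.15 M replicate 1 (adjusted p = 0.0804) and when only the 6 libraries compared were fitted (adjusted p = 0.295). The calls on 0.7 M and on average held in 12 of 12 omissions, with adjusted p at most 0.0404 and 0.00219. Mal-A6 was also lower on 0.7 M than on 0.15 M sucrose with no overlap in either genotype, as were 1.36% of all genes, but its averaged log2 fold change of -1.06 did not pass (SE 0.28, adjusted p = 0.0709).

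No other member passed this edgeR test for genotype with all libraries kept. On 0.15 M sucrose Amy-p had a log2 fold change of -1.98 (SE 0.48, adjusted p = 0.0592), but it passed in DESeq2 and in edgeR with no filter on low counts. Mal-A4 had one of -1.14 (SE 0.41, adjusted p = 0.179). Amy-p and Mal-A4 shared with Mal-A6 that all libraries labelled InRi lay below all control libraries on 0.15 M, as for 9.33% of all genes. On 0.7 M the lower values of Mal-A6 were without overlap, as for 16.5% of all genes, and Amy-d was the member with higher values and no overlap, as for 18.5% of all genes. Its log2 fold change of 1.55 did not pass (SE 0.57, adjusted p = 0.160). Averaged over sucrose Amy-p had -0.91 (SE 0.40, adjusted p = 0.166). The median of the 8 members was -0.85 on 0.15 M and 0.08 on 0.7 M, beside 0.03 and -0.04 for all genes tested. Without control 0.15 M replicate 2 the count of members called was 2 in each of these comparisons, with 4.32%, 18.5% and 22.5% of all genes called.

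**Figure D4:**
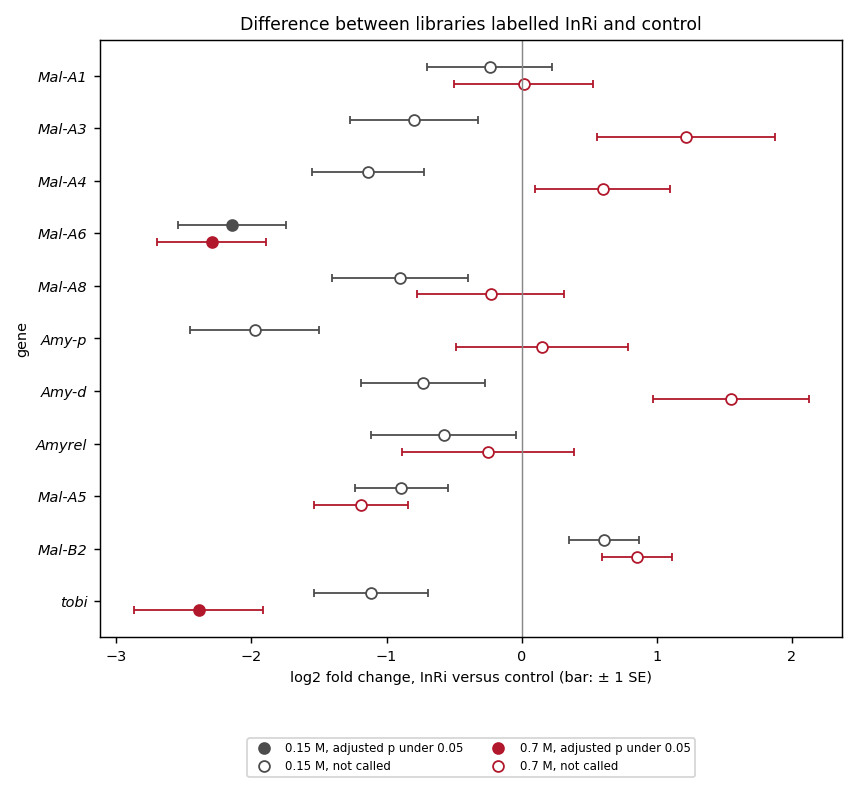
Log2 fold change in libraries labelled InRi against control, on 0.15 M and on 0.7 M sucrose. Shown are each tested member and the non-members Mal-A5, Mal-B2 and tobi, with bars of 1 SE and filled points for adjusted p under 0.05. Mal-A6 is filled at both sucrose levels, at -2.14 and -2.30, and tobi on 0.7 M, at -2.39. Amy-d is farthest to the right, at 1.55 on 0.7 M.

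Salivary gland markers also differed between the genotypes. The 9 markers, glue protein genes and the regulators sage and fkh among them, summed to 1415 to 2801 CPM in control 0.15 M and 58.0 to 1733 CPM in InRi 0.15 M. On 0.7 M they summed to 2725 to 5790 CPM for control and 13.1 to 116 CPM for the libraries labelled InRi. Of the 9, 7 fell averaged over sucrose, 2 on 0.15 M and 8 on 0.7 M, where 5.13%, 0.773% and 1.79% of all genes fell. The regulator sage was called in each of these comparisons and fkh in none. None of the 9 was at 0 in all 12 libraries. In InRi 0.15 M replicates 1, 2 and 3 the sums were 58.0, 1733 and 150 CPM, and Mal-A6 stood at 27.5, 59.6 and 72.3 CPM. The midgut markers averaged over sucrose gave 5 falls and 2 rises of 32, where 5.13% of all genes fell and 6.23% rose. LysC, named above as lower on 0.7 M sucrose, was among the rises (log2 fold change 3.26, adjusted p = 0.000136). Of the 4 Malpighian tubule markers 0 passed for genotype or sucrose in edgeR, and at most 1 had an unadjusted p under 0.05 in any comparison. The part of RNA from these tissues in the Mal-A6 values was not tested.

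The other alpha-glucosidase genes were Mal-A5, Mal-B1, Mal-B2 and tobi. Mal-A5, which lies between Mal-A4 and Mal-A6 in the row of maltase genes on chromosome arm 2R, averaged 264 CPM per kilobase over the 12 libraries, above the 47.1 of Mal-A6. Mal-B2, on arm 2L, averaged 80.4 CPM per kilobase. tobi, an alpha-glucosidase gene of arm 3R known as a target of insulin and adipokinetic signals, averaged 7.74. Mal-B1 held 13 counts in all and was not tested. For sucrose, 0 of the 3 tested passed in edgeR in either genotype or on average. On average 2 of the 3 had an unadjusted p under 0.05, Mal-B2 higher and tobi lower, and Mal-A5 had an averaged adjusted p of 0.796.

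Averaged over sucrose, all 3 differed by genotype: Mal-A5 and tobi were lower and Mal-B2 higher where the label was InRi. In this comparison 5.13% of all genes were called lower and 6.23% higher, 11.4% either way. On 0.15 M sucrose the levels of tobi were 21.0, 18.6 and 41.4 CPM for control against 16.7, 11.6 and 9.59 CPM for the libraries labelled InRi. On 0.7 M they were 22.1, 16 and 26.1 CPM against 2.31, 2.66 and 7.45 CPM. All tobi values labelled InRi lay below all control values at the same sucrose level. Its averaged fall of 3.37-fold (log2 fold change -1.75, SE 0.32, adjusted p = 0.00397) held in 12 of 12 omissions. The fall on 0.7 M (5.25-fold, adjusted p = 0.0123) was lost when control 0.7 M replicate 1 or either of InRi 0.7 M replicates 1 and 2 was left out (adjusted p at most 0.0773). The exons of tobi overlap those of rha by 78 bp on the other strand.

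Levels of Mal-A5 on 0.15 M were 807, 472 and 722 CPM for control against 287, 306 and 487 CPM for the libraries labelled InRi. On 0.7 M they were 695, 1102 and 689 CPM against 320, 496 and 274 CPM. The groups overlapped on 0.15 M and not on 0.7 M. Its averaged fall of 2.06-fold (log2 fold change -1.04, SE 0.25, adjusted p = 0.0165) was lost when replicate 1 of either group labelled InRi was left out (adjusted p at most 0.0606). Mal-B2 rose 1.66-fold on average (log2 fold change 0.73, SE 0.18, adjusted p = 0.0223), a call kept in 6 of 12 omissions (adjusted p up to 0.0714).

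The balance within the amylase pair is given as a description, because it was singled out after the values had been seen. Amy-d made up 33.5%, 30.8% and 47.7% of the counts of Amy-p and Amy-d together in control 0.15 M and 64.5%, 55.4% and 60.6% in InRi 0.15 M. On 0.7 M it made up 35.3%, 66.7% and 42.9% in control and 70.3%, 77.5% and 67.7% in the libraries labelled InRi. At each sucrose level all libraries labelled InRi lay above all control libraries, though on 0.7 M control replicate 2 came within about a point of the lowest of them. The mean difference between genotypes within both sucrose levels was 23.2 percentage points, and 21.6 points without control 0.15 M replicate 2. Between sucrose levels within both genotypes it was 11.3 points.

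These shares rest on few counts, 7 to 170 of the pair in a library. The exact 95% binomial interval ran from 9.90% to 81.6% in control 0.7 M replicate 3 and from 26.5% to 41.2% in control 0.15 M replicate 1, and covers counting error only. How the authors' counting divided reads between the copies is not described. For the pair summed, the log2 fold change for genotype averaged over sucrose was -0.18 (adjusted p = 0.783).

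**Figure D5:**
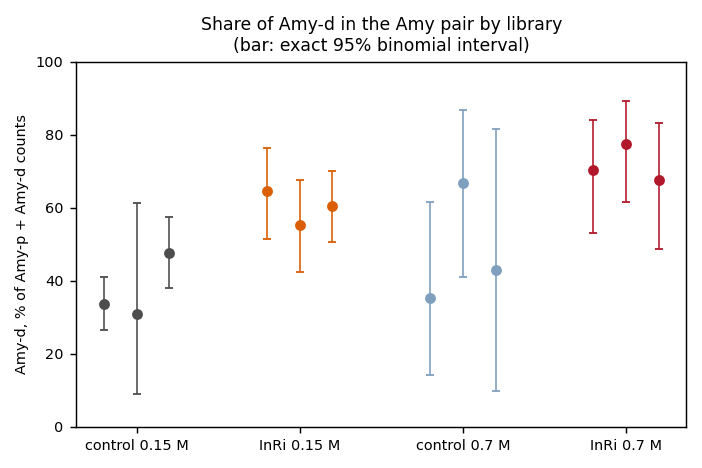
Share of Amy-d in the counts of Amy-p and Amy-d, in percent, 1 point per library with its exact 95% binomial interval. Group means are 37.3% in control 0.15 M, 60.2% in InRi 0.15 M, 48.3% in control 0.7 M and 71.8% in InRi 0.7 M.

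Several genes of sugar sensing were higher in the libraries labelled InRi. Averaged over sucrose, 4 of 9 genes that sense sugar or take part in glucose repression were called higher there and 0 lower. On 0.7 M 2 were called higher. Of all genes 6.23% and 3.63% were called higher in these comparisons. At an unadjusted p under 0.05, 6 of the 9 were higher and 1 was lower averaged over sucrose. sug, a sugar-responsive transcription factor gene, rose 4.91-fold (log2 fold change 2.30, adjusted p = 0.00453) and daw rose 2.04-fold (1.03, adjusted p = 0.00464), and both averaged calls held in 12 of 12 omissions. On 0.7 M alone daw held in 7 and sug in 6, with adjusted p at most 0.116 and 0.142. Mondo, listed as Mio (1.07, adjusted p = 0.0311), and the activin receptor gene babo (0.73, adjusted p = 0.0394) were called on average in 6 and 3 omissions. For sucrose averaged over genotype 0 of the 9 passed in edgeR and 3 were higher at an unadjusted p under 0.05, with sug at 1.70 and Mio at 1.16 (adjusted p = 0.0590 for both).

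Uptake and storage genes were counted in the same way. Of 5 tested sugar transporters, Tret1-1, a trehalose transporter gene, rose (0.80, adjusted p = 0.0299) and Glut1, a glucose transporter gene, fell (-0.91, adjusted p = 0.0175) in the libraries labelled InRi averaged over sucrose, where 11.4% of all genes were called either way. These held in 5 and 8 of 12 omissions, with adjusted p at most 0.0906 and 0.0598. Of 9 trehalose and glycogen genes, UGP, which makes UDP-glucose, fell (-0.65, adjusted p = 0.0391), a call kept in 2 of 12 omissions (adjusted p up to 0.0981). For sucrose averaged over genotype 0 transporters and 0 storage genes passed in edgeR, and in each list 1 was higher and 1 lower at an unadjusted p under 0.05.

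Across the 12 libraries Mal-A6 and Amyrel, the maltase and the amylase of highest mean CPM among the 10 members, were each set against 6825 tested genes with a mean of at least 5 CPM. Mal-A6 ranked the libraries most like CG15210, MED4 and Sodh-1 (Spearman correlation 0.986 each, n = 12), and the next gene followed at 0.979. Without control 0.15 M replicate 2 these were 0.982 (n = 11). Amyrel was most like CG7728 (0.909), CG15818 (0.888) and CG10764 (0.867, tied with the next gene). Among the 8 tested members the highest pair was Mal-A4 with Amy-p (0.881), followed by Mal-A3 with Mal-A4 (0.853), and the lowest was Mal-A6 with Amy-d (-0.08). The order and that sign rested on 1 library, since without control 0.15 M replicate 2 these pairs stood at 0.855, 0.945 and 0.127 (n = 11). All points share their libraries, groups and depth, so these values describe the ranking only.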

How the data were processed

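RNA-seq of 12 larval fat body libraries was analysed from the authors' deposited table of read counts per gene, whole numbers for 15222 genes. Per the submitters' processing notes, TopHat 1.3.2, Bowtie 0.12.7, Cufflinks 1.1.0 and the genome build dm3 were used. How reads were counted, and on which strand, is not given in the sources used here. Table columns were assigned by genotype, sucrose and replicate in the titles, with 0 left over.

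Low genes were removed by filterByExpr at a minimum count of 10 and a minimum total of 15, leaving 8662. Library sizes were scaled by TMM, and edgeR 4.0.16 (R 4.3.3) fitted a quasi-likelihood model with 1 mean per group to all 12 libraries (8 residual degrees of freedom), adjusted by Benjamini-Hochberg at 0.05 over all genes. CPM was computed here on TMM library sizes and can shift with composition. Exonic lengths and gene order came from BDGP6 (Ensembl release 115), matched by name, and no coordinates were used. DESeq2 1.42.0, DESeq2 size factors, no filter, a replicate block, fits of only the groups compared and the omission of each library were alternatives. The edgeR fit was also run on simulated counts, with changes set only in genes with a mean of at least 5 CPM. Its outcome is not reported here. Figures used matplotlib 3.10.9.

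All 10 members are named. Of each other list, fold changes are given for at most 4 genes, those with the smallest p. The genes gammaTry, LysP, sage and fkh were named only to describe a list or a lack of counts. The members and lists were chosen with earlier results of these data known. The omission of both doubted libraries, the summed amylase pair and the omission of 1 library from the Amy-d share were added after seeing the data.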

Additional observations from a re-analysis of the deposited data

How the results depend on the processing

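Counts of members called are given here out of 8 tested, and they moved with the setting. For InRi against control on 0.15 M sucrose the count was 1. DESeq2 and a fit with no filter on low counts each gave 2, as did leaving out both control 0.15 M replicate 2 and control 0.7 M replicate 3, and fitting only the 6 libraries compared gave 0. Of all genes 6.47%, 1.62%, 3.46% and 0% were called in these fits, in that order, in place of 1.73%. Over the omission of each library it ran from 0 to 2. On 0.7 M the count of 1 became 2 with only the libraries compared and 2 with both libraries left out, and ran from 1 to 2 over the omissions. The share of all genes called went from 5.41% to 20.8% and 15.9% in those 2 fits. For sucrose in control the count of 2 became 4 with DESeq2, 4 with both libraries left out and 0 with only the libraries compared, and ran from 0 to 5. Those fits called 2.08%, 0.477% and 0% of all genes, in place of 0.277%. For sucrose in the libraries labelled InRi the count of 0 ran from 0 to 2. Averaged over sucrose the genotype count of 1 ran from 1 to 2. Averaged over genotype the sucrose count of 3 became 7 with DESeq2 and 6 with both libraries left out, and ran from 1 to 7. All genes called went from 2.34% to 5.67% and 5% in those 2 fits. The interaction stayed at 0 in every omission. The same omissions moved the count of all genes called from 150 to 43 to 383 for genotype on 0.15 M and from 203 to 109 to 636 for sucrose averaged over genotype. The log2 interaction of Mal-A6 ran from -0.57 to 0.13 over the omissions and was -0.69 with both libraries left out. It turned positive when control 0.15 M replicate 1 (0.127), InRi 0.15 M replicate 3 (0.135) or control 0.7 M replicate 2 (0.124) was left out. DESeq2 size factors moved the median of all genes by at most 0.05 on the log2 scale. The cause of these moves was not tested.

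Replicate numbers did not pair the libraries. Deviations of same-numbered libraries correlated from -0.38 to 0.17 over 18 pairs, 2 of them over 0.1, and 1 of 12 libraries was closest to its own number. With a replicate block the members called for sucrose in control numbered 0 in place of 2 and those for sucrose averaged over genotype 2 in place of 3, and no other count of members changed. The shares of all genes were 0.127% in place of 0.277% and 1.7% in place of 2.34%.

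Depth limits the low members most. A count of 3 stood for up to 3.27 CPM in the shallowest library, so changes in Mal-A2 and Mal-A7 were not detectable.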
